A study of Mus musculus with 8 samples.

Results

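The platelet-derived growth factor (PDGF) genes measured here were 6 of the 32285 features counted in each library, and they were chosen by name: the 4 ligand genes Pdgfa, Pdgfb, Pdgfc and Pdgfd and the 2 receptor genes Pdgfra and Pdgfrb. Single-nucleus RNA sequencing had been run on 2 tissues of mouse pups at postnatal day 5.5, the petrous temporal bone (PTB), which surrounds the inner ear and forms the bony pocket beside the cerebellum, and the paraflocculus/flocculus (PF/F), the cerebellar lobule that lies in this pocket. In each tissue, wild-type (WT) littermates were compared with Tbx1+/- mice, which carry 1 working copy of Tbx1, a T-box transcription factor gene, on the C57BL/6J background with both sexes pooled. There were 2 libraries per genotype and tissue, 8 in all, each from the pooled tissue of 5 mice, and the replicate number marks the experimental batch. Because animals were pooled, each library is 1 replicate of its group, and no spread between single mice can be given.

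PDGFs are secreted dimers that act on receptor tyrosine kinases of the surface of mesenchymal, mural and glial precursor cells. PDGF-A and PDGF-C bind mainly the alpha receptor encoded by Pdgfra, PDGF-B binds both receptors, and PDGF-D binds mainly the beta receptor encoded by Pdgfrb. PDGF-C and PDGF-D are made as latent proteins and need cleavage by proteases before they bind. In the brain, PDGF-B from endothelial cells recruits pericytes through the beta receptor and the alpha receptor marks oligodendrocyte precursors, while in bone PDGF-B made by cells of the osteoclast lineage is known as a signal to osteoprogenitor and vascular cells.

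In the GRCm38 build (mm10), Pdgfa (ENSMUSG00000025856) lies on the minus strand of chromosome 5 from 138976014 to 138997370 and Pdgfb (ENSMUSG00000000489) on the minus strand of chromosome 15 from 79995874 to 80014977. Pdgfc (ENSMUSG00000028019) lies on the plus strand of chromosome 3 from 81036416 to 81214040 and Pdgfd (ENSMUSG00000032006) on the plus strand of chromosome 9 from 6168584 to 6378850. Pdgfra (ENSMUSG00000029231) lies on the plus strand of chromosome 5 from 75152292 to 75198215 and Pdgfrb (ENSMUSG00000024620) on the plus strand of chromosome 18 from 61045150 to 61085061. All 6 are protein-coding genes in GENCODE, and their spans run from 19.1 kb for Pdgfb to 210 kb for Pdgfd. Intron reads were counted, so a longer gene can gather more counts, and levels are therefore compared between cell types for 1 gene and never between genes. Genes on the opposite strand overlap 5 members in part, among them Ddi1 inside Pdgfd, and counts of such pairs are separated by strand alone.

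Levels are given in CPM, the unique molecular identifiers (UMIs) counted for a gene in all nuclei of 1 type and 1 library, per 1000000 UMIs of the same nuclei. The types follow the deposited annotation, 15 in PTB (31076 nuclei) and 16 in PF/F (48237 nuclei). The annotated nuclei of a library held between 33515253 and 43752949 UMIs in PTB and between 37700625 and 52902902 in PF/F, and the median nucleus held 3853 to 4758 and 2610 to 3503 UMIs. Tbx1 itself stood at 38.9 and 39.4 CPM in the WT bone libraries and at 26.3 and 35.7 CPM in the Tbx1+/- bone libraries, and in PF/F it was counted 4 to 13 times per library, so the labels can be read from it in bone only, and with the reservation that the part of the gene the allele lacks is not given in the sources used here. Any 2 of the libraries shared 35 to 94 cell barcodes.

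The marker lists placed most labels where their names say. The osteoclast list (Acp5, Ctsk, Ocstamp, Dcstamp) summed to 6408 CPM in nuclei labelled osteoclast and to at most 818 CPM in any other PTB type, the chondrocyte list was highest in matured chondrocytes (5523 CPM), and in PF/F the endothelial, mural, oligodendrocyte, astroglial, meningeal, Purkinje and immune lists were each highest in the type of that name. The connective tissue list was highest in CT1 (4688 CPM), while CT4, also named connective tissue, came 13th of the bone types at 736 CPM. The osteoblast list did not follow the names: the osteoblast list (Alpl, Bglap, Runx2, Sp7) was highest in CP1, a chondrocyte progenitor subtype, at 9875 CPM against 6550 CPM in osteoblasts, of which Runx2 made 8806 CPM. Bglap (osteocalcin) was highest in osteoblasts at 925 CPM and Col1a1 in osteoblasts and matured osteoblasts/osteocytes. The groups below are named as annotated. The types were built from all genes, the 6 members included, so levels by type are a description with no test.

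Of the ligands in the annotated bone types, Pdgfb had the narrowest pattern. In osteoclasts it stood at 220 and 230 CPM in the WT libraries and at 243 and 203 CPM in the Tbx1+/- libraries (mean 224 ± 17.1, SD, n = 4). The next type, matured chondrocytes, had 8.85 ± 5.26 CPM and the other 13 types had 4.80 to 7.57 CPM, so that every osteoclast value lay above every value of every other type. Osteoclasts were 5.02% of the annotated bone nuclei and held 73.0% of the Pdgfb UMIs of these nuclei. The bone annotation names no vessel, muscle, epithelial or glial type. Barcodes outside it held further Pdgfb UMIs. Those scored by a list of endothelial markers held 1520, beside 3194 in all annotated bone nuclei. A Pdgfb UMI was found in 62.4% of osteoclast nuclei and in 2.21% to 3.37% of the nuclei of each other type. Osteoclast nuclei were the deepest, and after thinning to 1500 UMIs the shares were 26.6% and 0.876% to 1.33%.

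The low level outside osteoclasts can be set beside that of other osteoclast genes in the same libraries. In osteoblasts, Pdgfb stood at 1.99% to 3.20% of its osteoclast level. Dcstamp, which encodes a protein needed for osteoclast fusion, stood there at 0.611% to 1.69% of its osteoclast level, Ocstamp at 2.17% to 5.94%, Ctsk (cathepsin K) at 5.25% to 10.8% and Acp5 (tartrate-resistant acid phosphatase) at 9.94% to 16.3%. The Pdgfb ratio lay above that of Dcstamp and below those of Ocstamp, Ctsk and Acp5 in every library. No expression in osteoblasts is read from it, and the origin of these counts was not tested.

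**Figure D1:**
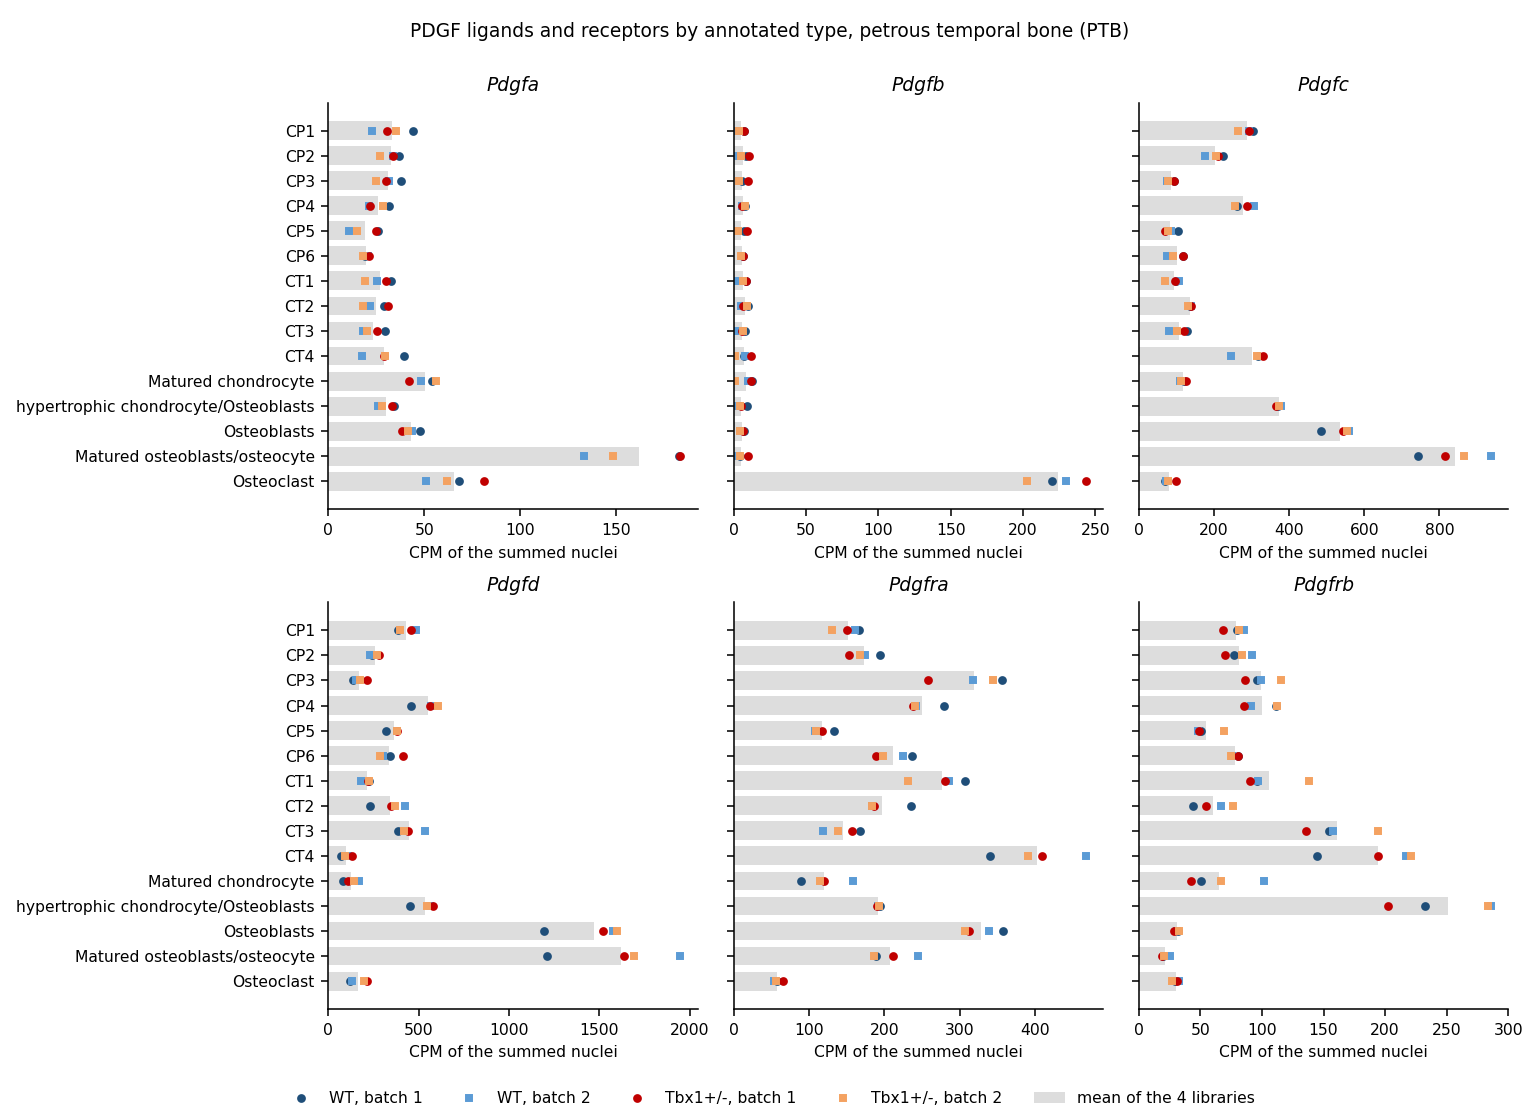
Level of each PDGF ligand and receptor gene in the 15 annotated types of the petrous temporal bone, in CPM of the summed nuclei on a linear axis that starts at 0 and differs between panels. Points are the 4 libraries and grey bars their mean; Pdgfb stands out in osteoclasts (224 CPM) and Pdgfd in osteoblasts and matured osteoblasts/osteocytes (1471 and 1622 CPM), where Pdgfrb is low (31.0 and 20.9 CPM).

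Pdgfd and Pdgfc were highest in the bone-forming types. Pdgfd, in matured osteoblasts/osteocytes, stood at 1211 and 1949 CPM in WT and at 1637 and 1691 CPM in Tbx1+/- (mean 1622 ± 306, n = 4), and in osteoblasts at 1191 and 1576 CPM in WT and at 1521 and 1597 CPM in Tbx1+/- (mean 1471 ± 189). The ranges of these 2 types overlapped, although the matured type was higher in each of the 4 libraries. All other types were far lower: the third in order, CP4, had 550 ± 63.8 CPM, below osteoblasts by at least 732 CPM in every library, and CT4, a connective tissue subtype, was the lowest at 99.2 ± 25.2 CPM. The library labelled WT replicate 1 was the lowest in both types.

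Osteoblasts were 18.7% of the annotated bone nuclei and held 49.5% of their Pdgfd UMIs, and 88.7% of osteoblast nuclei had at least 1 Pdgfd UMI. Among osteoclast nuclei, in which osteoblast genes were also counted, the share was 30.4%. After thinning each nucleus to 1500 UMIs the shares were 73.2% of osteoblasts and 12.9% of osteoclasts.

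Pdgfc followed a stepped order in bone. It stood at 743 and 937 CPM in WT and at 815 and 866 CPM in Tbx1+/- in matured osteoblasts/osteocytes (mean 840 ± 82.0), then at 536 ± 33.9 CPM in osteoblasts and at 372 ± 5.44 CPM in the type labelled hypertrophic chondrocyte/osteoblasts. Each of these steps, and the next one down to CT4 (302 ± 38.4 CPM), was free of overlap between the libraries of the neighbouring types. Osteoclasts were lowest at 79.6 ± 13.0 CPM. Of the 14 neighbouring pairs in the order, 8 overlapped.

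Pdgfa, the ligand of the alpha receptor alone, was also highest in matured osteoblasts/osteocytes, at 183 and 133 CPM in WT and at 184 and 148 CPM in Tbx1+/- (mean 162 ± 25.3). In contrast to Pdgfc and Pdgfd, it was not high in osteoblasts as a whole, which had 42.9 ± 3.82 CPM. Osteoclasts came second at 65.6 ± 12.6 CPM and were above osteoblasts in each of the 4 libraries, so this ligand was not at its lowest in the type in which Pdgfc and Pdgfra were. From osteoclasts through matured chondrocytes (50.2 ± 6.37 CPM) down to CP5 (18.9 ± 7.35 CPM) the neighbouring types overlapped throughout.

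The 2 receptors were arranged differently. Pdgfra was broad in bone: CT4 had 340 and 467 CPM in WT and 409 and 390 CPM in Tbx1+/- (mean 402 ± 52.2), osteoblasts had 328 ± 23.5 CPM, CP3 had 319 ± 43.3 CPM and CT1 had 276 ± 32.0 CPM, with overlap between each pair of neighbours. Osteoclasts had the least, 58.0 ± 5.18 CPM. Osteoblasts thus stood second in the order of both Pdgfc and Pdgfra, while matured osteoblasts/osteocytes, the type in which Pdgfa and Pdgfc were highest, had 208 ± 26.9 CPM of Pdgfra, below osteoblasts in each of the 4 libraries.

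Pdgfrb was highest in other types than Pdgfd, which stood at 535 CPM in hypertrophic chondrocytes/osteoblasts, 99.2 CPM in CT4 and 445 CPM in CT3. In hypertrophic chondrocytes/osteoblasts Pdgfrb stood at 233 and 286 CPM in WT and at 203 and 283 CPM in Tbx1+/- (mean 251 ± 40.6). CT4 followed at 194 ± 35.2 CPM and CT3 at 161 ± 24.4 CPM, with overlap between each pair of neighbours. Osteoblasts had 31.0 ± 1.89 CPM, osteoclasts 30.1 ± 2.43 CPM and matured osteoblasts/osteocytes 20.9 ± 2.96 CPM, and these 3 types were the lowest of the 15. The ranges of osteoblasts and osteoclasts overlapped. Hypertrophic chondrocytes/osteoblasts were 13.9% of the annotated bone nuclei and held 35.2% of the Pdgfrb UMIs of these nuclei. A Pdgfrb UMI was found in 50.6% of them, against 12.4% of osteoblast nuclei and 13.2% of osteoclast nuclei.

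**Figure D2:**
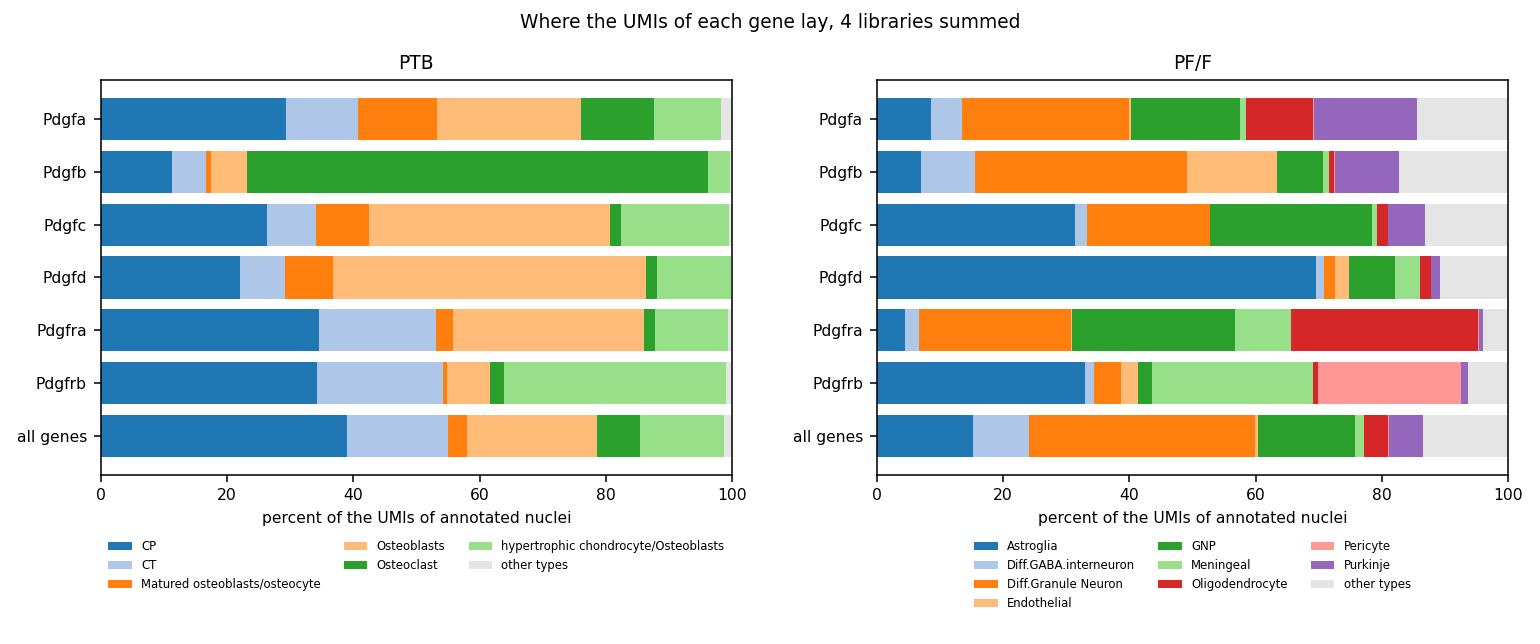
Percent of the UMIs of each PDGF gene that lay in each class (PTB, with the CP and CT subtypes joined) or type (PF/F), with the 4 libraries summed; the bar "all genes" gives the percent of all UMIs, the value a gene at 1 level everywhere would show. Osteoclasts hold 73.0% of the Pdgfb UMIs of annotated PTB nuclei and astroglia 69.5% of the Pdgfd UMIs of annotated PF/F nuclei.

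In PF/F, the receptor Pdgfrb was highest in the vessel wall. Pericytes, the mural cells of capillaries, stood at 1463 and 1125 CPM in WT and at 1173 and 1878 CPM in Tbx1+/- (mean 1410 ± 346), although they were few, with 74 nuclei in all and 12 to 25 per library. Meningeal cells had 128 ± 35.3 CPM, endothelial cells 48.7 ± 23.4 CPM and astroglia 17.0 ± 2.48 CPM, and no 2 neighbours in this order overlapped. A Pdgfrb UMI was found in 94.6% of pericytes and in 0.306% of differentiated granule neurons and 1.00% of Purkinje cells. Of the Pdgfrb UMIs of annotated nuclei, astroglia, being many, held 33.0%, meningeal cells 25.5% and pericytes 22.7%.

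Pdgfb, the ligand that pairs with this receptor at brain vessels, was highest in endothelial cells. It stood there at 168 and 148 CPM in WT and at 182 and 150 CPM in Tbx1+/- (mean 162 ± 16.1), from 11 to 42 UMIs per library. No other PF/F type came near: immune cells had 27.2 ± 14.1 CPM, progenitors 19.7 ± 12.0 CPM and the other types 0.934 to 8.11 CPM. Endothelial cells were 0.379% of the nuclei and held 14.3% of the Pdgfb UMIs, while differentiated granule neurons held 33.6% at a level of 4.02 ± 0.534 CPM, near the tissue mean of 4.29 ± 0.437 CPM.

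Pdgfra in PF/F had 2 high types. Oligodendrocyte-lineage nuclei stood at 474 and 424 CPM in WT and at 630 and 407 CPM in Tbx1+/- (mean 484 ± 101), and meningeal cells at 338 and 400 CPM in WT and at 391 and 310 CPM in Tbx1+/- (mean 360 ± 42.9), with no overlap between the types. Granule neuron progenitors (GNP) had 101 ± 9.0 CPM and differentiated granule neurons 40.3 ± 1.17 CPM, again without overlap. Purkinje cells and GABA interneurons were lowest at 7.21 ± 3.39 and 6.66 ± 7.66 CPM. A Pdgfra UMI was found in 57.1% of oligodendrocyte-lineage nuclei and in 58.8% of meningeal nuclei against 4.08% of Purkinje nuclei, which were the deeper sequenced.

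Of the ligands of the alpha receptor, Pdgfc was highest in astroglia, at 153 and 239 CPM in WT and at 173 and 217 CPM in Tbx1+/- (mean 195 ± 39.6), followed by GNP at 157 ± 24.6 CPM and GABA interneuron progenitors at 135 ± 23.7 CPM. These 3 overlapped, yet the order held in each of the 4 libraries. The more mature neurons were lower, with 50.8 ± 2.32 CPM in differentiated granule neurons and 18.7 ± 3.73 CPM in differentiated GABA interneurons. In GNP, Pdgfc and Pdgfra were thus both above the level of the differentiated granule neurons in each library.

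Pdgfa was low throughout PF/F, and its highest types could not be told apart: RL.early had 41.2 ± 6.58 CPM, Purkinje cells 41.1 ± 6.34 CPM, oligodendrocyte-lineage nuclei 37.4 ± 1.91 CPM and progenitors 32.0 ± 18.5 CPM. All 15 neighbouring pairs of its order overlapped. Astroglia, the top type of Pdgfc, had 7.40 ± 2.09 CPM of Pdgfa.

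Pdgfd in PF/F was highest in endothelial cells and astroglia, whose ranges overlapped. Endothelial cells stood at 76.5 and 286 CPM in WT and at 252 and 250 CPM in Tbx1+/- (mean 216 ± 94.5), where the low WT value rested on 5 UMIs of 15 nuclei. Astroglia had 158 and 223 CPM in WT and 177 and 210 CPM in Tbx1+/- (mean 192 ± 29.7), RL.early 137 ± 17.8 CPM and meningeal cells 113 ± 19.5 CPM. The oligodendrocyte lineage, also glial, had 17.6 CPM, and differentiated granule neurons had 1.94 ± 0.523 CPM. Because astroglia were many, they held 69.5% of the Pdgfd UMIs of the annotated PF/F nuclei.

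**Figure D3:**
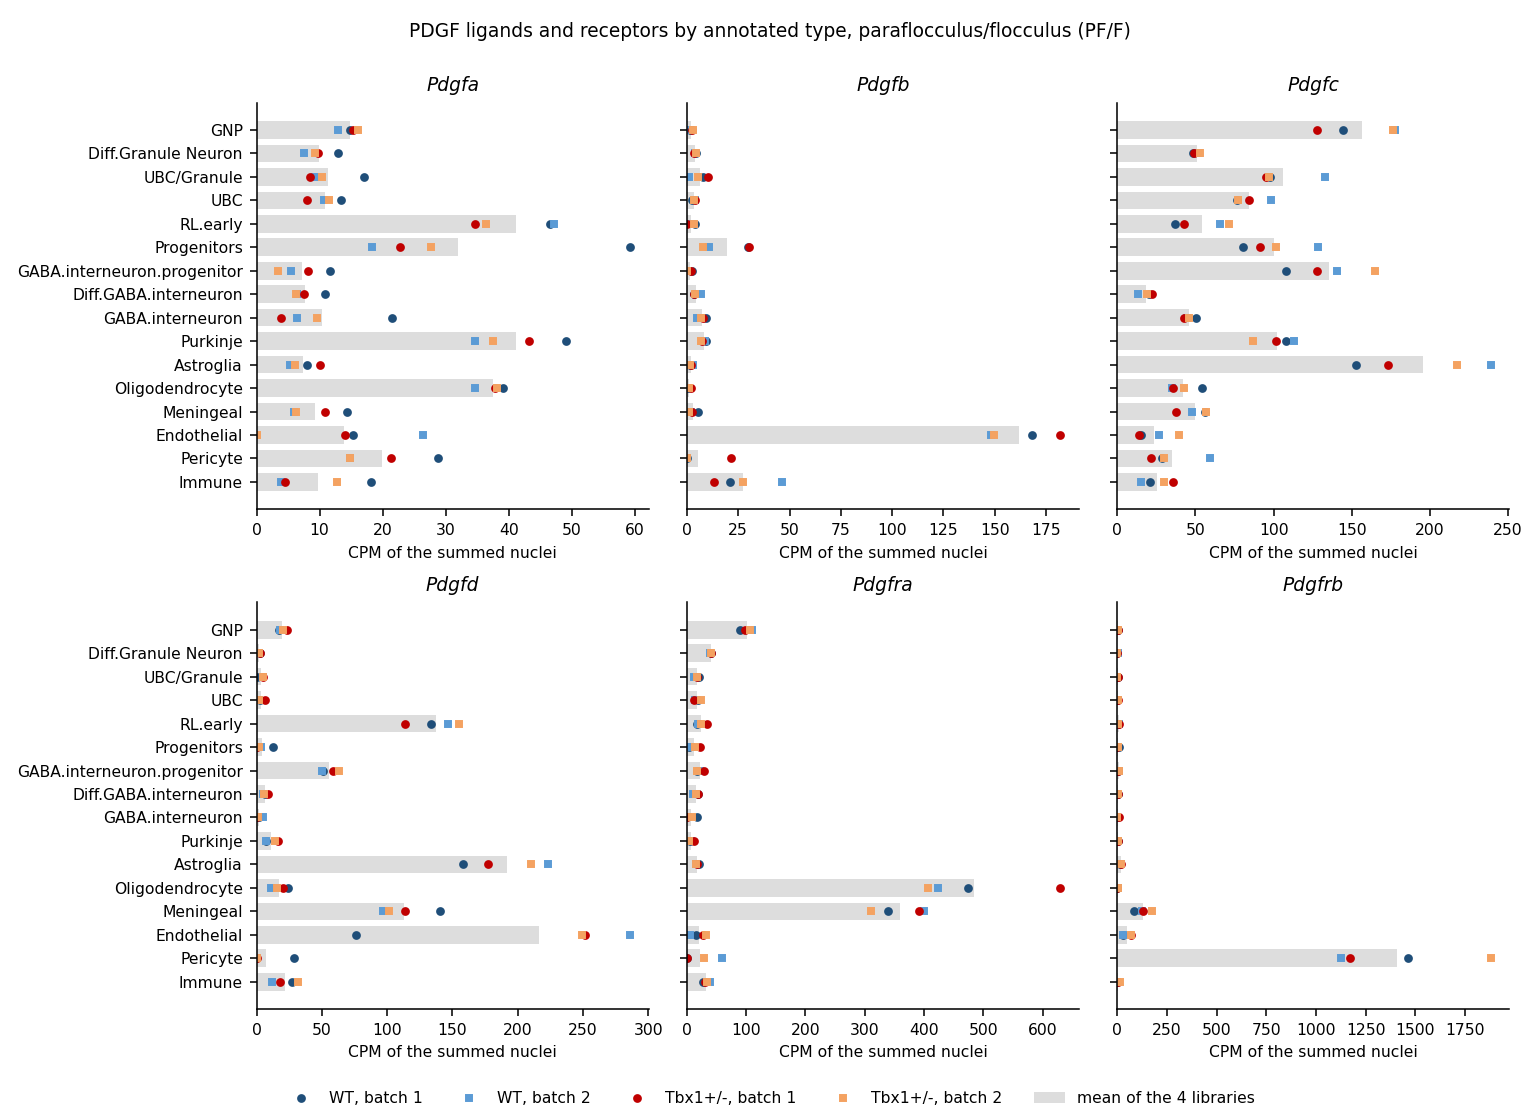
Level of each PDGF ligand and receptor gene in the 16 annotated types of the paraflocculus/flocculus, in CPM of the summed nuclei on a linear axis that starts at 0 and differs between panels. Points are the 4 libraries and grey bars their mean; Pdgfrb is highest in pericytes (1410 CPM), Pdgfb in endothelial cells (162 CPM) and Pdgfra in the oligodendrocyte lineage (484 CPM) and meningeal cells (360 CPM).

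The genes whose pattern over the types was most like that of a member were named by a fixed rule, the 3 highest Pearson correlations of mean log2(CPM + 1) over the types with at least 20 nuclei in every library. The points share their libraries and their depth, and the values are a description. In PTB (15 types, 13102 genes), Pdgfb was most like Atp6v0d2, a subunit of the osteoclast proton pump (r = 0.99), Oscar, an osteoclast receptor (r = 0.99), and Nyap2 (r = 0.99). Pdgfc was most like Lpar3, a lysophosphatidic acid receptor (r = 0.92), Fam234b (0.91) and Gprc5c (0.90), and Pdgfd was most like Ddi1 (0.96), which lies inside Pdgfd on the opposite strand, Slc46a2 (0.90) and Ptprs (0.90). Pdgfa was most like Anxa7 (0.93), Mbnl1 (0.92) and Spag9 (0.89). The receptors had Vezf1 (0.81), Cuedc1 (0.80) and Taf8 (0.80) for Pdgfra, and Uba7 (0.93), Stat5b (0.87) and Tead1 (0.86) for Pdgfrb.

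In PF/F (14 types, without the sparse endothelial cells and pericytes; 14058 genes), Pdgfrb was most like Gxylt2 (r = 0.96), Ranbp3l (0.95) and Vcam1, a cell adhesion molecule (0.94), all highest in meningeal cells. The genes named for Pdgfd were Sardhos (0.95) and Plce1 (0.95), both highest in astroglia, and Pdgfra was most like Midn (0.95), S100a6 (0.94) and Morf4l2 (0.92). Pdgfb was most like Ap1b1 (0.95), Rasa4 (0.93) and Pitpna (0.93), Pdgfc like Cd247 (0.79), Dvl2 (0.74) and Arl3 (0.72), and Pdgfa like Ido2 (0.87), Pus7 (0.85) and Cadm1 (0.78). Between members, Pdgfd and Pdgfrb ran together over these 14 PF/F types (r = 0.74) and apart over the PTB types (r = -0.41). The PF/F value was the highest of any pair of members in that tissue. It leaves out pericytes, the type highest in Pdgfrb (1410 CPM), which had 7.17 CPM of Pdgfd.

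The second question was whether loss of 1 Tbx1 copy changed these genes. In the sums over all annotated nuclei, none of the 6 members passed the test in either tissue (edgeR's quasi-likelihood test, Benjamini-Hochberg adjusted p under 0.05 and a change over 1.5-fold; all adjusted p = 1.00). No gene of the 20250 tested in PTB and none of the 20756 tested in PF/F passed either (0% in both), while 217 and 99 genes had an unadjusted p under 0.05. By DESeq2, 0 genes passed in either tissue as well, with 115 and 29 genes at an unadjusted p under 0.05. With 2 libraries a genotype, an exact permutation test of 1 gene cannot go below p = 0.33.

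In PTB, Pdgfd had the largest difference of the sums, with 469 and 669 CPM in WT and 680 and 675 CPM in Tbx1+/- (log2 change 0.25, SE 0.17). The difference rested on the WT library of batch 1: within batch 1 the log2 difference was 0.54, within batch 2 it was 0.01, and without that library the fitted change was 0.03. Osteoblasts, the type that held most Pdgfd, were 14.6% of the annotated nuclei in that library and 20.03% to 21.4% in the other 3, and the Pdgfd level within its osteoblasts was also the lowest, at 1191 CPM against 1521 to 1597 CPM. Pdgfra was lower, with 239 and 228 CPM in WT and 215 and 208 CPM in Tbx1+/- (log2 change -0.15, SE 0.09), and Pdgfc higher, with 264 and 293 CPM in WT and 307 and 303 CPM in Tbx1+/- (log2 change 0.13, SE 0.09). The genotypes did not overlap for these 3 members, where 23.2% of all genes tested did not overlap. Pdgfa (0.02, SE 0.15), Pdgfb (0.09, SE 0.13) and Pdgfrb (-0.02, SE 0.14) had overlapping values. The part of the mix of types in the Pdgfra and Pdgfc differences was not tested.

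In PF/F, Pdgfrb had the largest difference, with 6.07 and 7.43 CPM in WT and 7.83 and 9.41 CPM in Tbx1+/- (log2 change 0.37, SE 0.18, unadjusted p = 0.085). It was higher in Tbx1+/- within both batches, by 0.37 and 0.34 on the log2 scale. The fitted change was 0.24 without WT replicate 1 and 0.23 without Tbx1+/- replicate 2. Sums over a tissue also move with its mix of types. Meningeal nuclei were 155 of 12255 and 123 of 9153 annotated nuclei in WT, and 227 of 13835 and 201 of 12994 in Tbx1+/-. Pericytes were 12 and 19 nuclei in WT and 18 and 25 in Tbx1+/-. The part of this mix in the Pdgfrb difference was not tested. Pdgfd differed by 0.09 (SE 0.10). Pdgfrb and Pdgfd were the 2 members whose genotypes did not overlap, where 17.9% of all genes tested did not. The other 4 members overlapped, with log2 changes from -0.07 for Pdgfa to 0.09 for Pdgfra. The difference between the change in PTB and that in PF/F passed the test for no member and for no other gene (interaction in edgeR, 0% of 22148 genes), with values from -0.39 (SE 0.25) for Pdgfrb to 0.18 (SE 0.24) for Pdgfd. For Pdgfrb it was -0.40 (SE 0.14, unadjusted p = 0.022, adjusted p = 1.00 by edgeR) with the replicate block.

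Over the tissue sums and the 21 fits of classes and types, 105 tests of a member were made, 93 of them within classes and types, and none passed (lowest adjusted p = 0.999 in edgeR). Another 33 pairs of a member and a fit fell below the count filter. Of these tests, 54 were higher and 51 lower in Tbx1+/-. The background was 0% in every fit except Purkinje cells, where 1 gene of 12851 passed (0.00778%). That gene, named after its values were seen, was Ttr (transthyretin, known from the choroid plexus), with a log2 change of 1.97 (SE 0.22, adjusted p = 0.0256 by edgeR). With the replicate block, which takes the batch as a term, 109 genes passed in the 21 fits of classes and types, and again no member.

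The 2 member tests of 105 with an unadjusted p under 0.05 both concerned Pdgfd, where 0.477% to 2.89% of all genes had such a p in the 23 fits. With the replicate block there were 7 of 105, where 2.88% to 6.00% of all genes had such a p. All 7 were higher in Tbx1+/-: Pdgfd and Pdgfc in osteoclasts, Pdgfd in Purkinje cells, Pdgfrb in the PF/F sums and in meningeal cells, and Pdgfb and Pdgfd in GNP. They are not 7 separate results, since the PF/F sums include the meningeal nuclei. Pdgfb in GNP had a mean of only 1.97 CPM. How many of all genes with such a p were higher was not counted. In osteoclasts, Pdgfd stood at 121 and 131 CPM in WT and at 213 and 197 CPM in Tbx1+/- (log2 change 0.70, SE 0.12, unadjusted p = 0.00079, adjusted p = 1.00 by edgeR). The genotypes did not overlap, as was the case for 27.1% of the 13191 genes tested in osteoclasts. Pdgfc was the other member without overlap there, with 69.4 and 72.0 CPM in WT and 98.2 and 78.9 CPM in Tbx1+/- (log2 change 0.32, SE 0.15). Pdgfd was higher within both batches, by 0.82 and 0.59 on the log2 scale. The adjusted p of Pdgfd was 0.071 by edgeR with the replicate block. Pdgfd passed in 1 setting only, without WT replicate 1 (log2 change 0.64, SE 0.18). That setting left 1 WT library, and far more genes passed in it over the classes and types than in the main fits. A pass there was therefore not particular to Pdgfd. Without the 8% of nuclei with the most UMIs the Pdgfd change was 0.49 (SE 0.27). That cut was set over all types of a library and fell more on the deep osteoclast nuclei. In osteoblasts Pdgfd differed by 0.16 (SE 0.16) and its genotypes overlapped, while Pdgfa (-0.20, SE 0.13) and Pdgfra (-0.18, SE 0.10) were the members without overlap there, beside 24.2% of the 15573 genes tested.

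Osteoblast genes were also found in these osteoclast nuclei. The osteoblast list summed to 1375 and 1304 CPM in WT osteoclasts and to 1477 and 1594 CPM in Tbx1+/- osteoclasts, with all 4 of its genes detected. Runx2 made most of each sum, and it does not mark osteoblasts alone, since it stood higher in CP1 than in osteoblasts. Pdgfd in osteoclasts was 10.1% and 8.33% of its level in osteoblasts of the same WT libraries and 14.02% and 12.4% in Tbx1+/-. For Bglap the percentages were 19.6% and 17.0% in WT and 27.4% and 25.4% in Tbx1+/-, and for Col1a1 18.7% and 17.3% in WT and 34.2% and 23.9% in Tbx1+/-. In every library Pdgfd had a lower percentage than each of these genes. As levels in osteoclasts, Runx2 (945 and 1056 CPM in WT, 1159 and 1188 CPM in Tbx1+/-) and Sp7 (46.4 and 43.0 CPM in WT, 58.8 and 59.0 CPM in Tbx1+/-) were higher in both Tbx1+/- libraries than in both WT libraries, as Pdgfd was. The other 4 osteoblast genes overlapped between the genotypes, among them Bglap (283 and 126 CPM in WT, 161 and 236 CPM in Tbx1+/-) and Col1a1 (2570 and 1385 CPM in WT, 2775 and 1812 CPM in Tbx1+/-). The part of osteoblast RNA in the Pdgfd difference was not tested. Pdgfb, the osteoclasts' own ligand, differed by -0.02 (SE 0.13).

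**Figure D4:**
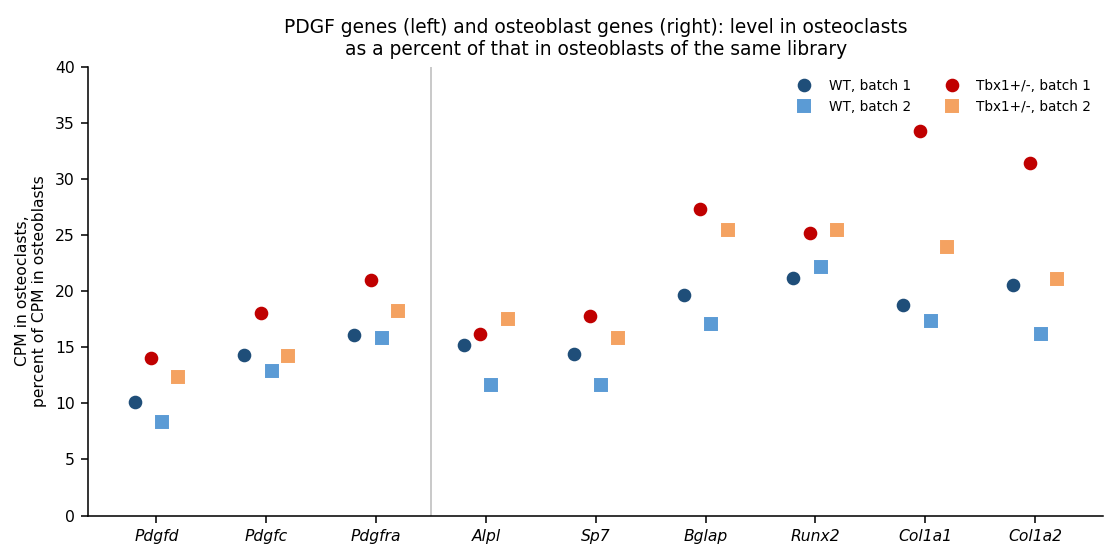
Level of 3 PDGF genes and 6 osteoblast genes in osteoclast nuclei as a percent of the level in osteoblast nuclei of the same library (linear axis from 0); each point is 1 of the 4 PTB libraries. Both Tbx1+/- libraries lie above both WT libraries for Pdgfd (12.4% and 14.02% against 8.33% and 10.1%) and also for the osteoblast genes, Alpl, Sp7, Bglap, Runx2, Col1a1 and Col1a2. Of these, Runx2 stood higher in CP1 than in osteoblasts.

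In Purkinje cells, Pdgfd stood at 7.58 and 7.18 CPM in WT and at 16.1 and 14.5 CPM in Tbx1+/- (log2 change 1.06, SE 0.31, unadjusted p = 0.0057, adjusted p = 1.00 by edgeR), from 15 and 18 UMIs in WT and 28 and 47 UMIs in Tbx1+/-. The genotypes did not overlap, as for 23.2% of the 12851 genes tested. Pdgfb (log2 change -0.27, SE 0.35) and Pdgfc (-0.21, SE 0.19) did not overlap there either, with lower values in Tbx1+/-. The Pdgfd levels in Purkinje cells were 3.22% to 9.12% of its level in astroglia of the same library, and the 4 genes of the astroglial list also had counts in Purkinje nuclei. Relative to astroglia, Slc1a2 stood there at 6.60% to 10.5%, Gfap at 1.98% to 7.64%, Aqp4 at 3.76% to 4.14% and Slc1a3 at 1.73% to 3.68%, and none of the 4 was higher in both Tbx1+/- libraries than in both WT libraries. Ttr in the same nuclei was counted 52 and 65 times in WT and 155 and 361 times in Tbx1+/-, and its part in the Pdgfd difference was not tested. Without the 8% of nuclei with the most UMIs in each library, the Pdgfd change turned to -0.54 (SE 0.45). That cut was set over all types of a library. Purkinje nuclei were deep, with medians of 5653 to 8533 UMIs beside 2610 to 3503 for all annotated nuclei, so the cut fell more on them. The Purkinje nuclei and Pdgfd UMIs left were not counted.

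In meningeal cells, Pdgfrb stood at 86.4 and 123 CPM in WT and at 131 and 172 CPM in Tbx1+/- (log2 change 0.55, SE 0.27, unadjusted p = 0.067, adjusted p = 1.00 by edgeR). The genotypes did not overlap, as for 26.7% of the 10002 genes tested there, and the difference was 0.60 in batch 1 and 0.49 in batch 2 on the log2 scale. Leaving out 1 library moved the fitted change between 0.34, without WT replicate 1, and 0.80, without WT replicate 2, and it was 0.35 without Tbx1+/- replicate 2. In the oligodendrocyte lineage, Pdgfra differed by 0.22 (SE 0.27), with the highest and the lowest library both Tbx1+/-. Pericytes and endothelial cells had fewer than 20 nuclei in a library, and no fit was made for them.

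**Figure D5:**
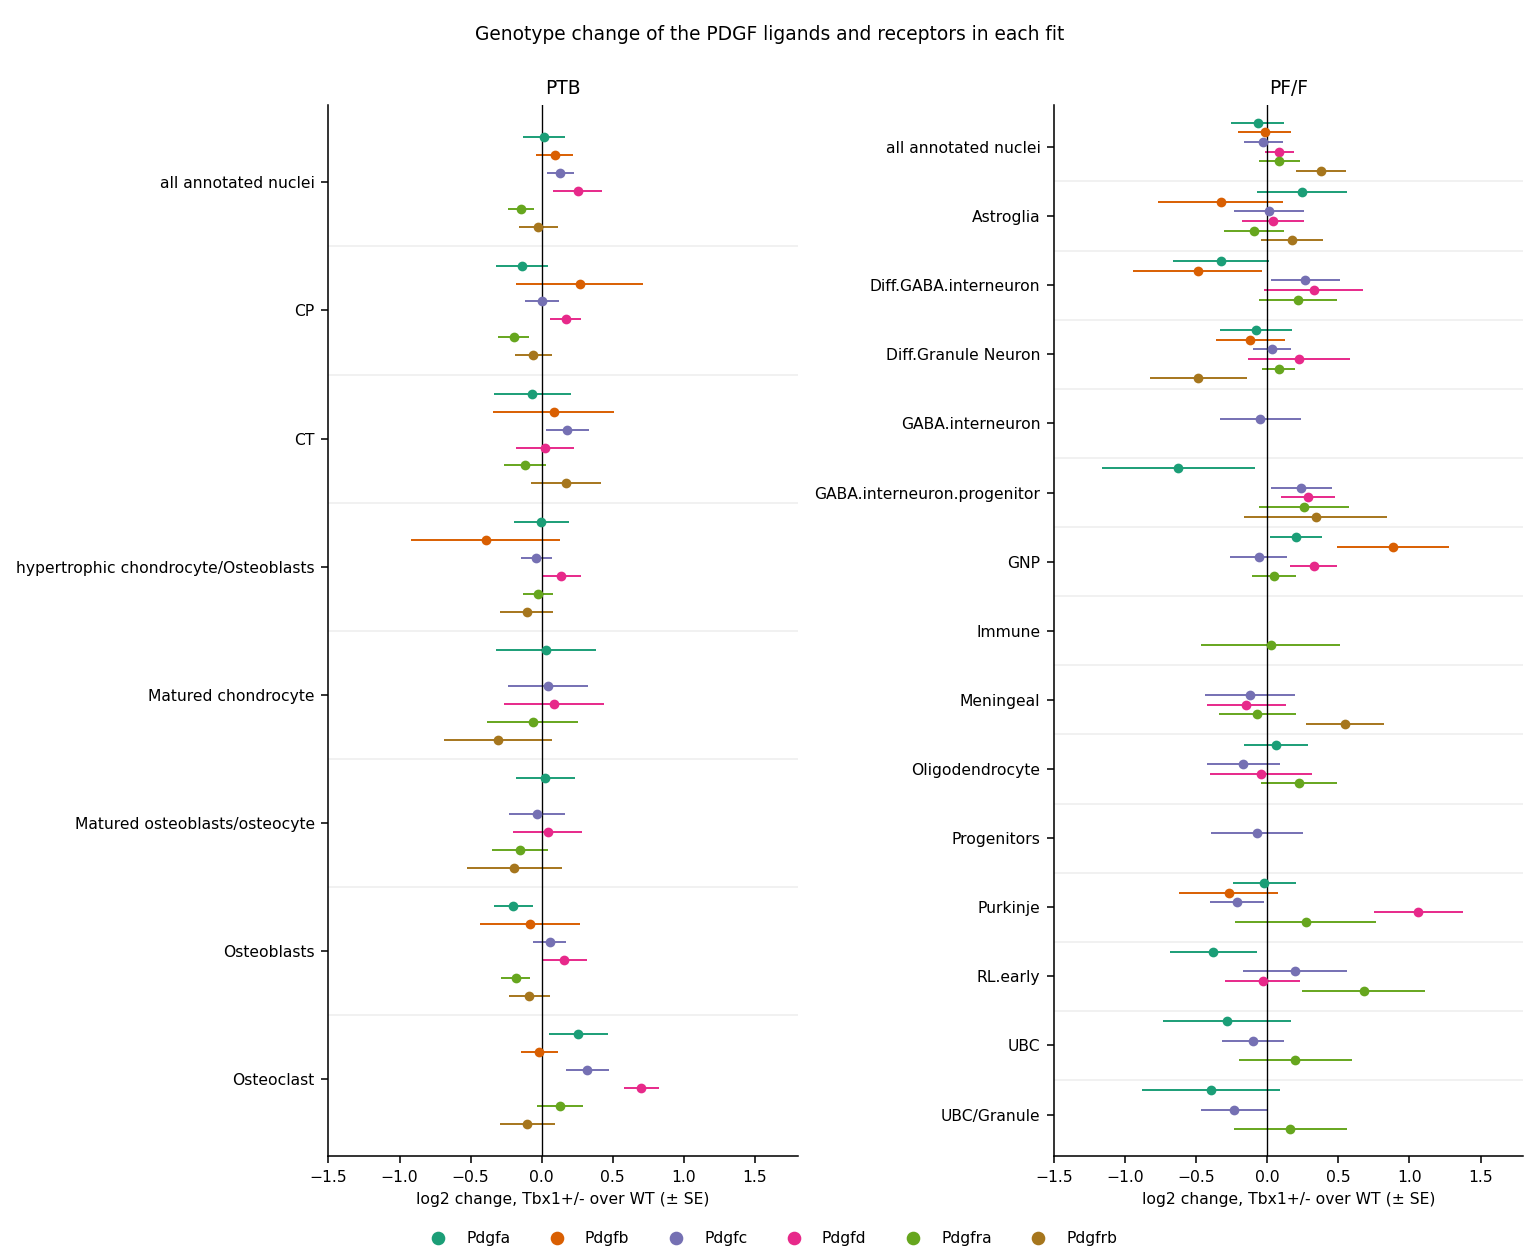
Log2 change of each PDGF gene, Tbx1+/- over WT, with its standard error, in the sums over all annotated nuclei and in each fitted class or type (edgeR, 2 libraries a genotype; genes below the count filter have no point). None passed the test. The farthest from 0 are Pdgfd in Purkinje cells (1.06) and Pdgfb in GNP (0.88, mean level 1.97 CPM) in PF/F and Pdgfd in osteoclasts (0.70) in PTB.

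The other genes of the pathway were taken from a list of 53 genes: proteases that process the ligands (Furin, Plat), co-receptors (Nrp1, Lrp1), adaptors and enzymes at the receptors (Grb2, Ptpn11, Plcg1, Pik3ca), negative regulators (Cbl, Spry2) and immediate early targets (Fos, Egr1). None of them passed the test in any of the 23 fits, in either direction. In the PTB sums, 37 of the 53 were higher and 16 lower in Tbx1+/- with a median log2 change of 0.03 beside -0.00297 for all genes, and 0 had an unadjusted p under 0.05, beside 1.07% of all genes. In the PF/F sums, 27 were higher and 26 lower with a median of 0.00118 beside 0.00255. In osteoclasts, where 51 could be tested, 28 were higher and 23 lower, with a median of 0.02 beside 0.01 for all genes, and 2 (3.92%) had an unadjusted p under 0.05, beside 2.18% of all genes. The most by that count was 3 of 33 (9.09%), in PF/F immune cells, beside 2.89% of all genes.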

How the data were processed

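Nuclei of PTB and PF/F had been profiled by 10x single-nucleus RNA sequencing. The deposited values are raw UMI counts per gene and nucleus, which the authors made with Cell Ranger 7.0.0 on mm10 with intron reads counted; per the labels, cell types came from their own annotation, which was used as deposited. Barcodes outside it entered no test and are only described, and no further doublet removal was made. UMIs were summed per library and type and scaled to CPM. Genotypes were compared by edgeR 4.0.16 (quasi-likelihood test, TMM factors, its default filter on low counts, R 4.3.3) in classes and types with at least 20 nuclei in every library, with Benjamini-Hochberg adjustment over all genes tested and calls at adjusted p under 0.05 and over 1.5-fold. The tests were tried on simulated counts. DESeq2 1.42.0, RLE factors, no filter, a replicate block, nuclei with at least 2000 genes, leaving out the 8% of nuclei with the most UMIs and leaving out each library were alternatives.

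The members, the pathway list, the marker lists and the rule for named genes (the members, and per member and tissue the 3 genes of highest correlation over types, with at least 5 CPM in their highest type) were chosen with earlier results of these data known. One gene that the rule names is not reported here. The replicate number marks a batch of animals, and same-numbered libraries deviated together (r = 0.55 over 20250 genes in PTB and 0.71 over 20756 genes in PF/F, where 2 pairs allow 1 value per tissue). The p-values measure the spread between pooled libraries, not between mice. Shares of nuclei with a UMI cover counting error only and move with depth.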

Additional observations from a re-analysis of the deposited data

Results flagged for a closer look

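Pdgfd in the PTB sums stood apart in 1 library: WT replicate 1 had 469 CPM and the other 3 libraries 669 to 680 CPM, a gap past the 95% critical value of Dixon's test. It was the only one of 48 groups of 4 libraries so marked, where chance marks about 1 in 20.

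Barcodes outside the annotation, with at least 1000 genes and at least 3 UMIs of a marker list, held several members above the mean of the annotated nuclei. These are ranges of a marker score, not cell types. In PTB, the 3564 barcodes of the endothelial list had 62.0 ± 11.8 CPM of Pdgfb beside 20.9 in annotated nuclei, and the 768 of the pericyte and mural list had 240 ± 30.6 CPM of Pdgfrb beside 94.0. Pdgfb stood at 33.8 ± 8.63 CPM in the immune list and at 36.2 ± 9.19 CPM in the muscle list, and Pdgfa at 48.0 ± 10.9 CPM in the epithelium list beside 38.2 in annotated nuclei. In PF/F, the 135 barcodes of the endothelial list had 138 ± 26.4 CPM of Pdgfb beside 4.29, 146 ± 56.6 CPM of Pdgfd beside 41.8 and 105 ± 23.8 CPM of Pdgfrb beside 7.68. The 82 barcodes of the pericyte and mural list had 117 ± 17.1 CPM of Pdgfc beside 93.7 and 53.2 ± 50.6 CPM of Pdgfrb beside 7.68. This Pdgfrb mean rested on 1 library, Tbx1+/- replicate 2, with 129 CPM, while the other 3 libraries had 20.4, 31.6 and 31.9 CPM. Of the 82 barcodes, 48 held no more than the 3 marker UMIs required. The 135 and the 82 barcodes held 2337329 and 1407146 UMIs in all. Per barcode this is far above the median of annotated PF/F nuclei (2610 to 3503 by library), and whether they are doublets was not tested.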

How the results depend on the processing

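No member was called in the tissue sums or for the difference between tissues under any alternative. In classes and types, 0 to 1 member was called when each library was left out, the 1 being Pdgfd in osteoclasts without WT replicate 1 (0.64). Genes called in classes and types numbered 1 and rose to 68 without a filter, 2 by DESeq2, 109 with the replicate block and 39 to 471 when 1 library was left out (471 without WT replicate 1, 159 without WT replicate 2, 59 without Tbx1+/- replicate 1, 39 without Tbx1+/- replicate 2); the cause was not tested. The replicate block changed no call of a member, and Pdgfd in osteoclasts had an adjusted p of 0.071 with it. On the log2 scale, Pdgfb in the PF/F sums turned to 0.039 with at least 2000 genes and 0.078 without the 8% of nuclei with the most UMIs, where its difference between tissues turned to -0.052 and Pdgfd in Purkinje cells to -0.54. Leaving out 1 library gave, in the PTB sums, -0.14 to 0.20 for Pdgfa, -0.020 to 0.20 for Pdgfb, 0.068 to 0.20 for Pdgfc, 0.03 to 0.52 for Pdgfd and -0.20 to 0.14 for Pdgfrb. In the PF/F sums it gave -0.29 to 0.20 for Pdgfa, -0.17 to 0.10 for Pdgfb, -0.15 to 0.095 for Pdgfc, -0.084 to 0.23 for Pdgfra and 0.23 to 0.52 for Pdgfrb. For the difference between tissues it gave -0.13 to 0.29 for Pdgfa, -0.036 to 0.30 for Pdgfb, 0.011 to 0.32 for Pdgfc, -0.042 to 0.44 for Pdgfd and -0.57 to -0.21 for Pdgfrb. In types it gave 0.64 to 0.75 for Pdgfd and -0.15 to 0.085 for Pdgfb in osteoclasts, -0.035 to 0.36 for Pdgfd in osteoblasts, 0.34 to 0.80 for Pdgfrb in meningeal cells and -0.11 to 0.48 for Pdgfra in the oligodendrocyte lineage. Where an arm kept 1 library, that library was assumed to vary like the others. The level of Pdgfa in RL.early was 48.2 CPM as a mean over nuclei, 32.2 CPM with at least 2000 genes and 49.0 CPM without the 8%. With at least 2000 genes, Pdgfb in endothelial cells was 139 CPM, Pdgfra in the oligodendrocyte lineage 380 CPM and Pdgfrb in pericytes 1017 CPM. Thinning to 1500 UMIs lowered all 12 shares of nuclei with a UMI, for Pdgfb in osteoclasts to 26.6%. Each fell outside the exact binomial 95% interval of the unthinned share, which covers counting error only. Pdgfd in Purkinje cells was counted 15 to 47 times per library before any nuclei were left out. The 8% cut was set over all types of a library and fell more on deep ones such as Purkinje cells and osteoclasts.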
